A study of Rattus norvegicus with 31 samples.

Results

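Thiacloprid (THI) and clothianidin (CTD) are neonicotinoid insecticides, and the mixture of both was given to 4 rats whose livers were compared with those of 8 vehicle controls. The 4 rats received 54 mg/kg bw of THI together with 134 mg/kg bw of CTD per day by oral gavage for 28 days, suspended in aqueous carboxymethyl-cellulose, and the controls received the carboxymethyl-cellulose alone. All animals were young adult female Wistar rats of the stock Crl:WI, allocated at random, with no genetic modification named in the labels, and each library was made from the total RNA of 1 liver. The comparison covers 19904 of the 26312 genes in the count table, those whose counts summed over all 31 libraries to 2 or more. Beside it stand the direct comparisons of the mixture with 108 mg/kg bw of THI (4 rats), with 288 mg/kg bw of CTD (3 rats) and with 46 mg/kg bw of imazalil plus 135 mg/kg bw of CTD (IMZ + CTD, 4 rats), all for the same 28 days. A daily gavage of adult females over this time is a subacute model, and each group is a single dose.

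Neonicotinoids act on nicotinic acetylcholine receptors of insects, while in the liver of a mammal many foreign compounds are met by the nuclear receptors CAR and PXR. The paper cites earlier tests in which THI activated human PXR, while CTD acted on neither human receptor. Both receptors switch on the genes of xenobiotic metabolism, namely the P450 enzymes that oxidize a compound, the transferases that conjugate it and the transporters that export it. In rodents, activators of CAR also cause growth of the liver and entry of hepatocytes into the cell cycle. The transcription factor NRF2 controls a partly shared set of genes that supply and use glutathione. The 8 controls were the same for every treatment of the series.

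The treated livers were sequenced to totals of 35782839 to 47095895 counts, and the controls to 32726300 to 101230067. Between 12837 and 13062 genes had at least 10 counts in a treated library, against 12532 to 14231 in a control library, and the 10 most abundant genes took 25.2% to 28.23% and 26.66% to 30.64% of the counts. In the paper's supplement, the share of uniquely mapped reads was higher in each treated library than in any control library. Whether this bears on the comparison was not tested. The common biological coefficient of variation in edgeR was 19.4%. CPM is the count of a gene relative to the TMM-scaled total of its library. Of 18 hepatocyte markers, all were measured at an average log2 CPM above 0. Their summed level was 209600 to 263300 CPM in the treated rats and 239600 to 302800 CPM in the controls, with rat 4 below every control. In the edgeR test at an adjusted p of 0.05, 2 of the 18 were lower (11.1%, against 1.71% of all genes tested) and none was higher. A log2 fold change below 0 was found in 14 of the 18. 2 treated libraries stood apart in single gene groups. Rat 4 was low in cell division genes and rat 3 was high in globin genes, and the values of each are given beside the results they touch.

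With THI + CTD, 873 genes passed an adjusted p of 0.05 in the quasi-likelihood test of edgeR and are called differentially expressed genes (DEGs), which is 4.39% of all genes tested. Of these, 532 were up-regulated (2.67% of the genes tested) and 341 were down-regulated (1.71%), and 304 changed by more than 1 on the log2 scale. Without adjustment, 3502 genes had a p under 0.05. The median log2 fold change over all genes was -0.03. For 426 genes (2.14%) the CPM of all 4 treated rats lay above all 8 controls and for 363 (1.82%) below them, and 502 of the DEGs were in these 2 sets. The number of DEGs rested on single rats, with 450 without rat 3 and 577 without rat 2 of the mixture.

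**Figure D1:**
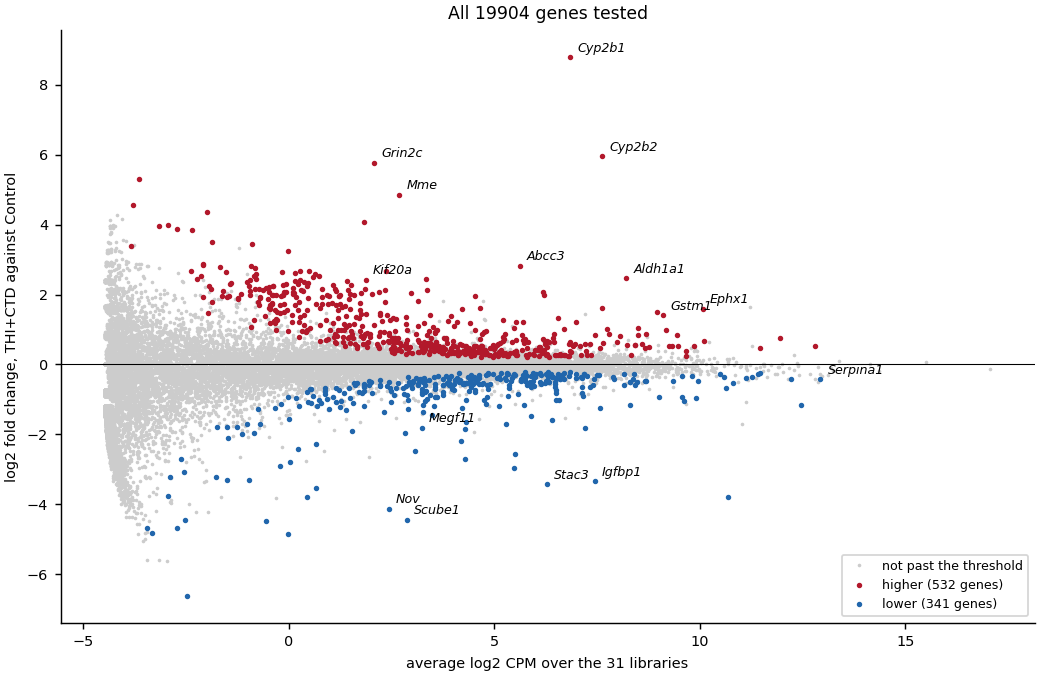
Log2 fold change of THI + CTD against control (y axis) by the average log2 CPM over the 31 libraries (x axis) for the 19904 genes tested, where red points are the 532 genes past the threshold with a higher level, blue points the 341 with a lower level and grey points the rest. Cyp2b1 at 8.78 and Cyp2b2 at 5.96 stand furthest above the others at their level, and Serpina1 at -0.43 is among the most abundant genes that fell.

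The genes that rose most were P450 genes of the Cyp2b family. Cyp2b1, the classical P450 of phenobarbital induction in rat liver, was at 77.3, 403, 199.8 and 217 CPM in rats 1 to 4 of the mixture, against 0.0302 to 0.998 CPM in the controls with a median of 0.379. The 4 values lay far above every control, and the log2 fold change was 8.78 ± 0.88 (SE; edgeR, adjusted p = 9.33e-08). Its neighbour Cyp2b2 reached 272, 525, 407.5 and 309.5 CPM against 1.51 to 12.1 CPM (median 4.70), a log2 fold change of 5.96 ± 0.45 (edgeR, adjusted p = 3.67e-10). Rat 1 was the lowest of the 4 for both genes and rat 2 the highest.

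Both genes were induced together, and the stretches before their starts are nearly the same, so both are shown here as RefSeq gives them on the build GRCr8 (chr1:90645869-90646168 and chr1:90722031-90722330, plus strand, from 250 bases before to 50 after the annotated start, in capitals the bases that differ between them).
Cyp2b1: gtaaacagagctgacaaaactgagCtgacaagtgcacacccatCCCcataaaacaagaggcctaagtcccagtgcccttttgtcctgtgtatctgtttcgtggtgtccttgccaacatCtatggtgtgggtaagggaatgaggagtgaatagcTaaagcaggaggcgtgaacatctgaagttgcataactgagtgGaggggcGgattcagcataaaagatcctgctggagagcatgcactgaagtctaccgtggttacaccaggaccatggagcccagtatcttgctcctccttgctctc
Cyp2b2: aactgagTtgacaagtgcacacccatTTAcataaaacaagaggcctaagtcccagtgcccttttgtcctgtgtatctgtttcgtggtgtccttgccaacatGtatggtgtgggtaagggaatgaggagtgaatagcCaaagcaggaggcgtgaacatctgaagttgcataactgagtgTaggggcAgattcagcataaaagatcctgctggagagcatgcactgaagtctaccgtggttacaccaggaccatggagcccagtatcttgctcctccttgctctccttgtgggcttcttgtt
The windows are offset by 17 bases, and over the 283 bases that align 275 are identical (97.2%), which leaves 8 differences. Such near-copies can share reads. The paper's supplement states that uniquely mapped reads were used, so reads that fit both genes equally were not counted. The levels of Cyp2b1 and Cyp2b2 are therefore uncertain and may be too low, while both genes rose.

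Of the 28 measured target genes of CAR and PXR, 15 rose and none fell, with a median log2 fold change of 0.86, against 2.67% of all genes that rose. In 13 of the 28 all 4 treated rats were above all controls, which held for 2.14% of all genes tested. Abcc3, a transporter that exports conjugates into the blood, went from 6.97 to 25.2 CPM in the controls (median 9.38) to 65.8, 86.9, 66.2 and 96.8 CPM, a log2 fold change of 2.82 ± 0.23 (edgeR, adjusted p = 8.58e-10). Aldh1a1, a retinaldehyde dehydrogenase, rose by 2.47 ± 0.24 to 402, 549, 465 and 568 CPM (controls 46.8 to 172). Ephx1, the microsomal epoxide hydrolase, reached 1144, 2253, 1653 and 1531 CPM against 212 to 761 CPM in the controls. Por, which passes electrons to the P450 enzymes, rose by 0.84 ± 0.20 (edgeR, adjusted p = 0.012) to 213, 256, 272 and 223 CPM (controls 113 to 165). None of these 4 genes overlapped between the groups. Slco1a4, an uptake transporter of hepatocytes, rose by 1.02 and Abcb1a, an efflux pump, by 0.66, likewise without overlap (Slco1a4 249.8 to 306 CPM against 51.1 to 203 CPM, Abcb1a 50.5 to 66.0 CPM against 28.7 to 39.3 CPM). The calls of Por without rat 3 (edgeR, adjusted p = 0.063) and of Abcb1a without rat 4 (edgeR, adjusted p = 0.093) were lost. Cyp3a23/3a1, a PXR target, rose by 3.23 ± 0.35 (edgeR, adjusted p = 4.45e-07) but from a very low level, with 0.554, 2.185, 1.00 and 1.47 CPM in the treated rats and 0.0609 to 0.247 CPM in the controls. As only uniquely mapped reads were used, reads that fit several of the similar Cyp3a genes equally were not counted. This level and its fold are therefore uncertain. In the paper's qRT-PCR of this dose group Cyp3a23/3a1 rose as well, and the paper states that the sequencing underestimated its rise. Cyp3a18 rose by 0.93 to 22.7 to 39.4 CPM (controls 7.41 to 22.4), a call that was lost without rat 1 (edgeR, adjusted p = 0.099) or rat 4 (edgeR, adjusted p = 0.071).

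Among the receptors and partners of this response, 1 of 20 measured genes passed the test. Nr1i3, which encodes CAR itself, was at 24.8, 25.1, 22.0 and 22.9 CPM in the treated rats and at 2.85 to 16.1 CPM in the controls (median 7.74), a log2 fold change of 1.37 ± 0.26 (edgeR, adjusted p = 0.0019). The 4 treated rats were close to each other and all above the controls. Nr0b2, a repressor of bile acid synthesis, had a log2 fold change of 0.94 (edgeR, adjusted p = 0.068), with 21.6 to 31.1 CPM against 8.27 to 19.9 CPM.

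Conjugation and antioxidant genes formed the next group. Of 23 measured NRF2 targets 10 rose and none fell (median log2 fold change 0.59), and of 22 glutathione S-transferase genes 8 rose (median 0.31). The shares that rose were 43.5% and 36.4%, against 2.67% of all genes tested. Gclm, a subunit of the enzyme that starts glutathione synthesis, was at 103, 123, 119.9 and 106 CPM against 57.3 to 70.1 CPM in the controls. Its log2 fold change was 0.87 ± 0.10 (edgeR, adjusted p = 1.69e-06), and no control reached the treated rats. Gsta3 rose by 1.62 ± 0.20 to 240.3, 312, 253 and 262 CPM (controls 35.05 to 126) and Gstm1 by 1.40 ± 0.14 to 534, 927, 779 and 814 CPM (controls 238 to 362). Gsr, which regenerates glutathione, rose by 0.59 to 125 to 178 CPM (controls 86.5 to 105). Akr1b8, an aldo-keto reductase, rose by 2.07 and SRXN1, which repairs oxidized peroxiredoxins, by 0.77, the call of SRXN1 being lost without rat 2, 3 or 4 (edgeR, adjusted p = 0.059, 0.089 and 0.059). Hmox1, another textbook target of NRF2, had a log2 fold change of -0.35 (edgeR, adjusted p = 0.1), and Nqo1 one of 0.41 (edgeR, adjusted p = 0.44).

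A single rat decided part of these calls. Gstp1 was at 21.5, 179.5, 16.6 and 17.97 CPM against 12.0 to 17.6 CPM in the controls, so that its log2 fold change of 1.97 came from rat 2. Without rat 2 it was 0.31 (edgeR, adjusted p = 0.66), and 6 instead of 10 NRF2 targets and 2 instead of 8 glutathione S-transferases were DEGs (5 of the transferases without rat 3). Gclm, Gsta3 and Gstm1 were still DEGs with any 1 of the 4 treated rats left out.

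The antioxidant response element, to which NRF2 binds, has the core TGACNNNGC. It was looked for on both strands of the RefSeq promoters (250 bases before to 50 after the start, build GRCr8). 7 of the 18 measured NRF2 targets with a promoter there held it (38.9%), against 13.1% of the 27457 genes in the table. 5 of the 7 were DEGs, beside 10 of all 23 measured NRF2 targets and 4.39% of all genes tested. The 5 include Gstp1, whose call rested on rat 2. The promoters of the 2 with the smallest p are shown with the element in capitals (Gclm chr2:213031885-213032184, Gsta3 chr9:31154739-31155038, both plus strand).
Gclm: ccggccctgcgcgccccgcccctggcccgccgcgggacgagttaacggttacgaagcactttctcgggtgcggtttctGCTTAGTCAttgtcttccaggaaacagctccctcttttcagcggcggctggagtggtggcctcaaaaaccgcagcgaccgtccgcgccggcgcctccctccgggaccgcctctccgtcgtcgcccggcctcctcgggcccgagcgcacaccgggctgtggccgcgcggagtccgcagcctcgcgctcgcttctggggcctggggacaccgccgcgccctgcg
Gsta3: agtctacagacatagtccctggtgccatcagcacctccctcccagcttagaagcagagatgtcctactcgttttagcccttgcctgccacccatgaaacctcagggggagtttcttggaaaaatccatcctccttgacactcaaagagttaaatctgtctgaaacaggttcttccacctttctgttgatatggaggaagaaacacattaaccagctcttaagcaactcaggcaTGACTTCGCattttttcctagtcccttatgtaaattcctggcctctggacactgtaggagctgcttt
In Gclm the element stands on the reverse strand and in Gsta3 on the forward strand.

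Of 24 genes of glucuronidation and sulfation 5 rose and 1 fell (20.8% and 4.17%, against 2.67% and 1.71% of all genes tested). The 5 were UDP-glucuronosyltransferases, which attach glucuronic acid to drugs and hormones. Ugt2b17 rose by 1.49 ± 0.24 to 402, 991, 821 and 546 CPM (controls 115 to 358), Ugt1a2 by 0.83 to 771 to 995 CPM (controls 363 to 594) and Ugt2b35 by 0.53 to 662 to 741 CPM (controls 424 to 520), and none of these 3 overlapped with the controls. Ugt2b37 rose by 0.85 and Ugt2a3 by 0.86. Papss2, which makes the sulfate donor, fell by 0.35 on the log2 scale, a call lost without rat 2 (edgeR, adjusted p = 0.11) or rat 3 (edgeR, adjusted p = 0.078). Of 32 P450 genes outside the CAR and PXR list 4 rose, among them Cyp2j4 by 0.70 and Cyp2j10 by 0.67, both without overlap (Cyp2j4 44.4 to 68.2 CPM against 29.97 to 41.1 CPM). Cyp2c24, which counts among these 4, was listed at 0 in all controls and at 0.0241 to 0.213 CPM in the treated rats, and its call was lost without rat 2 (edgeR, adjusted p = 0.064) or rat 3 (edgeR, adjusted p = 0.1). None of 7 targets of the aryl hydrocarbon receptor passed the test, although Cyp1a1 was at 9.67 to 16.5 CPM in the treated rats and at 0.268 to 7.81 CPM in the controls (log2 fold change 1.81 ± 0.64; edgeR, adjusted p = 0.11). Without adjustment, 2 of the 7 had a p under 0.05, and the Wald test of DESeq2 called 1.

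**Figure D2:**
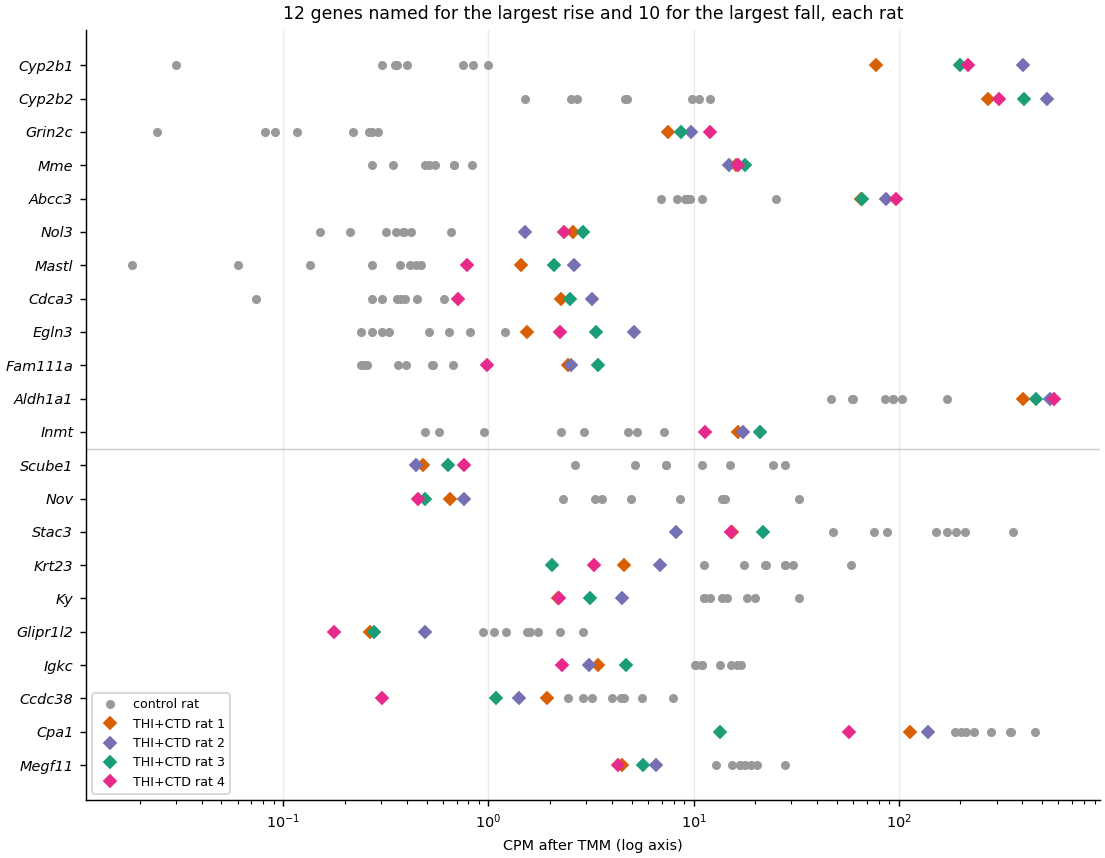
CPM after TMM normalization (x axis, log scale) of the 12 genes named for the largest rise and 10 named for the largest fall (y axis), where grey circles are the 8 controls and coloured diamonds the 4 rats on THI + CTD. No treated rat overlaps with a control in any of the 22 genes, as the choice of the genes requires, and rat 4 is the lowest of the 4 for Mastl, Cdca3 and Fam111a.

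Beside the P450 genes, 2 genes rose by more than 4 on the log2 scale among those with an average log2 CPM above 0 and no overlap. Grin2c, a subunit of the NMDA type of glutamate receptor, was at 7.52, 9.77, 8.73 and 12.0 CPM against 0.0244 to 0.289 CPM (log2 fold change 5.77 ± 0.42; edgeR, adjusted p = 2.06e-10, the smallest of all genes). Mme, which encodes the peptidase neprilysin, was at 16.05, 14.9, 17.9 and 16.45 CPM against 0.271 to 0.830 CPM (4.85 ± 0.38; edgeR, adjusted p = 3.92e-10). The 4 rats differed little from each other in the CPM of Mme. In the paper's qRT-PCR of this dose group, the SD of Mme was large beside its mean. The paper also states that the sequencing underestimated the rise of Mme. Egln3, a prolyl hydroxylase of the oxygen response, rose by 2.53 ± 0.41 to 1.54, 5.13, 3.34 and 2.23 CPM (controls 0.238 to 1.21). Nol3, an inhibitor of apoptosis, rose by 2.68 ± 0.34 to 1.52 to 2.90 CPM (controls 0.151 to 0.660). Inmt, a methyltransferase of small amines, rose by 2.43 ± 0.60 to 11.4 to 21.2 CPM (controls 0.491 to 7.17), a call that was lost without rat 3 (edgeR, adjusted p = 0.057).

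The largest group of up-regulated genes was that of cell division. Of 37 measured genes of mitosis and cytokinesis 32 rose and none fell, the median log2 fold change was 1.97, and all 37 had a value above 0. Their summed level was 124, 135, 128 and 55.4 CPM in rats 1 to 4, against 22.9 to 49.98 CPM in the controls with a median of 33.5. Rats 1, 2 and 3 were far above the highest control, while rat 4 was just above it. Rat 1 and rat 2 exceeded every control in 37 of the 37 genes, rat 3 in 36 and rat 4 in 20. The median log2 ratio to the control median (0.5 CPM added) was 1.33, 1.47 and 1.37 in rats 1 to 3 and 0.48 in rat 4. With any 1 rat of either group left out, between 24 and 33 of the genes were DEGs.

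Cdk1, the kinase that drives entry into mitosis, was at 4.36, 3.61, 3.71 and 1.65 CPM against 0.238 to 0.801 CPM in the controls, a log2 fold change of 2.38 ± 0.40 (edgeR, adjusted p = 0.0004). Here all 4 rats lay above the controls. Kif20a, a motor protein of the dividing cell, rose by 2.42 ± 0.47 to 5.59, 6.36, 5.88 and 1.87 CPM (controls 0.587 to 1.60). Plk1, a kinase of the spindle and its poles, rose by 2.01 ± 0.42 to 1.74, 1.74, 1.43 and 0.861 CPM (controls 0.136 to 0.573). Mki67, the common marker of proliferating cells, was at 10.8, 13.7, 15.6 and 4.38 CPM against 1.74 to 5.40 CPM, and Top2a, which untangles replicated DNA, at 15.95, 14.8, 16.3 and 4.53 CPM against 1.33 to 5.12 CPM. For Mki67 and Top2a, rat 4 lay within the range of the controls. Mastl and Cdca3, 2 mitotic genes outside this list, rose by 2.60 and 2.59 and were likewise lowest in rat 4 (Mastl 0.785 CPM, Cdca3 0.709 CPM). In these bulk libraries, fewer or more cells of a kind, such as dividing or immune cells, and less or more RNA per cell cannot be told apart.

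Genes that peak in G2 and mitosis often carry a CCAAT box and the element TTTGAA, known as CHR, close to their start. Both were searched on both strands of the same RefSeq promoters, which hold 29 of the 37 genes. TTTGAA stood in 21 of the 29 (72.4%), against 19.4% of all genes in the table, and CCAAT in 21 (72.4%) against 39.6%. Both together were found in 17 (58.6%) against 8.5%. The 2 elements shared bases in 2 of the 30 promoters of these genes. For the genes of DNA replication the share with TTTGAA was 15.6% (5 of 32). Cdk1 and Plk1 serve as examples (Cdk1 chr20:19265043-19265342, Plk1 chr1:186147408-186147707, build GRCr8, both plus strand, with both elements in capitals, ATTGG being CCAAT on the other strand).
Cdk1: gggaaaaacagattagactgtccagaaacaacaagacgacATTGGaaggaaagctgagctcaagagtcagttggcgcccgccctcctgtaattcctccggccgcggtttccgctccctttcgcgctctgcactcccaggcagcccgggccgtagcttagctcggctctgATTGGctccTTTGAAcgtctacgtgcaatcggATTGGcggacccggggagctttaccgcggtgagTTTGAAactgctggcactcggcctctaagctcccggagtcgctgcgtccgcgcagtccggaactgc
Plk1: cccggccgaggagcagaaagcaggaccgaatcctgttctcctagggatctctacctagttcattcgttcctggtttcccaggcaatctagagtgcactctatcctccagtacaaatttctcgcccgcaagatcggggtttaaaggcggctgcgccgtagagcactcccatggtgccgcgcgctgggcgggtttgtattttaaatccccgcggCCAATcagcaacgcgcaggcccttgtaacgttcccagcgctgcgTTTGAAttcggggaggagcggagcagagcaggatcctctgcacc
A match shows only that these letters stand in the window.

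Of 38 measured genes of DNA replication, of origin, helicase, polymerase and nucleotide supply, 15 rose and none fell, with a median log2 fold change of 0.58, and all 38 had a value above 0. Their summed level was 284, 346, 325 and 212 CPM against 201 to 252 CPM in the controls, so that rat 4 was again within the controls. Mcm3, a subunit of the replicative helicase, rose by 1.56 ± 0.28 to 5.16, 8.63, 5.26 and 2.35 CPM (controls 1.27 to 2.29). Pcna, the sliding clamp of the polymerase, rose by 0.53 to 17.4, 22.6, 21.6 and 15.2 CPM (controls 11.46 to 14.4), a call lost without rat 2 or 3 (edgeR, adjusted p = 0.0701 and 0.0634). Rrm2, a subunit of ribonucleotide reductase, is listed in 2 rows of the count table, and both rose (2.67 for Rrm2 and 2.68 for RRM2). Reads that fit both rows equally may be missing, as only uniquely mapped reads were used, so the level of each row is uncertain. Only 4 of the 38 genes were DEGs without rat 2, and likewise 4 without rat 3.

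The genes of entry into the cell cycle changed in both directions. Of 23, 9 rose and 2 fell (39.1% and 8.7%, against 2.67% and 1.71% of all genes tested). Ccnd1, the D-type cyclin of the growth response, rose by 0.88 ± 0.18 to 28.2, 36.4, 45.5 and 38.7 CPM (controls 16.5 to 24.9), and here rat 4 was not the lowest. Ccne1, an E-type cyclin of the start of replication, rose by 1.94 ± 0.31 to 1.66, 2.70, 2.64 and 1.01 CPM (controls 0.293 to 0.802) and E2f1, an activator of replication genes, by 1.72 ± 0.28 to 2.53, 4.57, 3.47 and 1.90 CPM (controls 0.605 to 1.21). The 2 that fell were inhibitors of cyclin-dependent kinases. Cdkn1a (p21) was at 7.23, 8.41, 6.64 and 5.77 CPM against 8.70 to 16.8 CPM (edgeR, adjusted p = 0.027) and Cdkn1c at 0.886 to 1.13 CPM against 1.42 to 2.22 CPM (edgeR, adjusted p = 0.043). Without rat 1 or without rat 3, 6 of the 23 genes were DEGs, and without rat 4 there were 7. Cdkn1a and Cdkn1c were not among the DEGs of these 3 fits, and the call of Cdkn1c was also lost without rat 2 (edgeR, adjusted p = 0.0956) and without some single controls.

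Of 32 genes of DNA damage signalling and repair 9 rose and none fell, led by H2afx, the histone variant that marks breaks, at 11.6, 15.1, 12.9 and 10.8 CPM against 3.87 to 6.97 CPM (log2 fold change 1.09 ± 0.22). Brca1, a repair gene, rose by 0.87, a call lost without rat 1, 2 or 3 (edgeR, adjusted p = 0.099, 0.12 and 0.089) and without some single controls. The list held 3 DEGs without rat 2 and 5 without rat 3. Of 21 targets of p53, none rose and 2 fell, Cdkn1a and Btg2 (log2 fold changes -0.87 and -1.004). The call of Cdkn1a was lost without rat 1, 3 or 4 (edgeR, adjusted p = 0.06, 0.0993 and 0.0963) and that of Btg2 without rat 1 or 3 (edgeR, adjusted p = 0.0606 and 0.121).

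**Figure D3:**
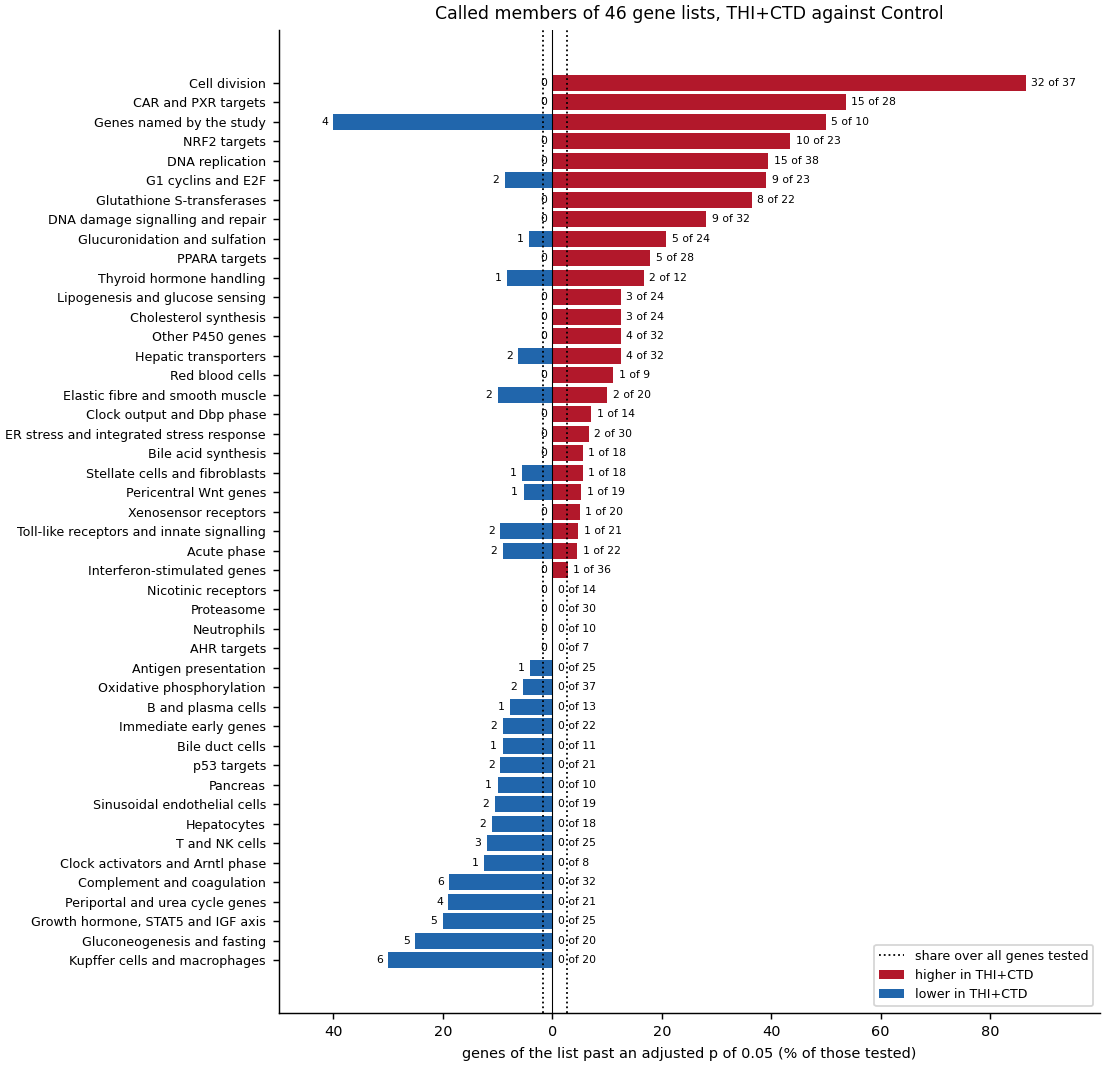
Share of the measured genes of each of 46 gene lists that passed an adjusted p of 0.05 in THI + CTD against control (x axis, % of the genes tested, red to the right for higher and blue to the left for lower levels), with the counts beside the bars and dotted lines at the shares over all genes (2.67% higher, 1.71% lower). The lists of cell division (32 of 37 higher) and of CAR and PXR targets (15 of 28 higher) reach the largest shares, apart from the 10 genes taken from the study, which were chosen on these libraries.

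Genes of lipid and sterol metabolism moved in smaller numbers, where 2.67% of all genes tested rose. Of 28 PPARA targets, the genes of fatty acid oxidation, 5 rose and none fell (median log2 fold change 0.21). Vnn1, a pantetheinase, rose by 2.12 ± 0.29 to 7.999, 10.2, 5.81 and 6.51 CPM (controls 0.913 to 2.745), and the thioesterases Acot3 and Acot2 rose by 0.73 and 0.68 and Pex11a, of peroxisome division, by 0.76, all 4 without overlap (Acot2 lost its call without rat 1; edgeR, adjusted p = 0.051). Cpt1a, which admits fatty acids into mitochondria, was at 239.5, 115, 76.3 and 419 CPM against 53.5 to 172.5 CPM. Rats 1 and 4 were above all controls and rats 2 and 3 within them, and without rat 4 the call was lost (log2 fold change 0.64; edgeR, adjusted p = 0.27). Of 24 genes of lipogenesis 3 rose, Me1 by 2.08 ± 0.30, Fads1 by 0.53 and Dgat1 by 0.25. The calls of Fads1, a fatty acid desaturase, and Dgat1, which makes triglycerides, were lost without rat 2 (edgeR, adjusted p = 0.077 and 0.18) and rat 3 (edgeR, adjusted p = 0.17 and 0.096), that of Dgat1 also without some single controls, and that of Fads1 also without rat 1 (edgeR, adjusted p = 0.062), which leaves Me1. Me1, the malic enzyme that supplies NADPH, was at 76.8, 212, 184 and 56.6 CPM against 20.65 to 54.7 CPM, so rats 2 and 3 were far above rats 1 and 4. Scd1, the stearoyl-CoA desaturase, differed in the same way, with 3470, 11110, 7881 and 731 CPM against 259.5 to 5487 CPM, and did not pass the test (edgeR, adjusted p = 0.24).

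Of 24 genes of cholesterol synthesis 23 had a log2 fold change above 0 and 3 were DEGs, a share of 12.5%. Acat2, of the first step, rose by 0.87 to 42.35, 59.0, 64.7 and 47.15 CPM (controls 20.0 to 39.9) and Sc5d, a desaturase of a late step, by 0.46 to 441 to 501 CPM (controls 308 to 392), and the groups did not overlap in either of them. In bile acid synthesis 1 of 18 genes passed the test, Akr1d1, a reductase of this pathway, with a rise of 0.49. Cyp7a1, its rate-limiting enzyme, was at 108, 110.1, 132 and 46.65 CPM against 81.9 to 385 CPM (median 281), a log2 fold change of -1.24 ± 0.51 that did not pass the test (edgeR, adjusted p = 0.18).

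The fasting and gluconeogenesis genes that changed were lower. Of 20 measured genes 5 fell and none rose (median log2 fold change -0.24), against 1.71% of all genes that fell. Igfbp1, an insulin-repressed binding protein of growth factors, was at 74.6, 30.4, 17.8 and 5.09 CPM against 64.2 to 691 CPM with a median of 285, a log2 fold change of -3.34 ± 0.66 (edgeR, adjusted p = 0.0025). Rats 2, 3 and 4 were below every control and rat 1 was within their range. Irs2, an adaptor of the insulin receptor, fell by 1.71 on the log2 scale (SE 0.33; edgeR, adjusted p = 0.0022) to 21.6, 22.9, 17.8 and 6.15 CPM (controls 23.99 to 98.3). The other 3 were Tdo2, given with the amino acid enzymes, Tat and Klf15. Tat, which degrades tyrosine, fell by 0.96 and Klf15, a factor of amino acid use in fasting, by 0.56, the call of Klf15 being lost without rat 4 (edgeR, adjusted p = 0.072). Pck1, the key enzyme of gluconeogenesis, was at 2410, 957, 597 and 1017 CPM against 1465 to 4600 CPM and did not pass the test (log2 fold change -1.08 ± 0.35; edgeR, adjusted p = 0.073).

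Tdo2, Hal, Amdhd1 and Oat, 4 enzymes of amino acid breakdown, fell. They were named through other lists or comparisons, and such enzymes were not counted as a group. Tdo2, which opens the tryptophan ring, was at 409.5, 461, 419.9 and 377 CPM against 623 to 1174 CPM, a log2 fold change of -1.048 ± 0.21 (edgeR, adjusted p = 0.0027). Hal, the first enzyme of histidine breakdown, was at 342, 367, 321 and 338 CPM against 458 to 758 CPM (-0.93 ± 0.15; edgeR, adjusted p = 0.00023), and Amdhd1, a later enzyme of the same pathway, at 93.3, 98.2, 97.2 and 114 CPM against 142 to 334 CPM (-1.25 ± 0.22). Oat, of ornithine breakdown, was at 679, 550.3, 624 and 317 CPM against 732.5 to 1242 CPM (-0.94 ± 0.22; edgeR, adjusted p = 0.011), a call lost without rat 4 (adjusted p = 0.059 in the same test). The groups did not overlap in any of these 4. Hal belongs to a list of 21 periportal and urea cycle genes, of which 4 fell and none rose, the others being Slc25a15, Slc7a2 and Cdh1 (log2 fold changes -0.33, -0.58 and -0.42). The call of Cdh1 was lost without any 1 of the treated rats (edgeR, adjusted p = 0.054, 0.091, 0.14 and 0.11 without rats 1 to 4) and without some single controls.

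**Figure D4:**
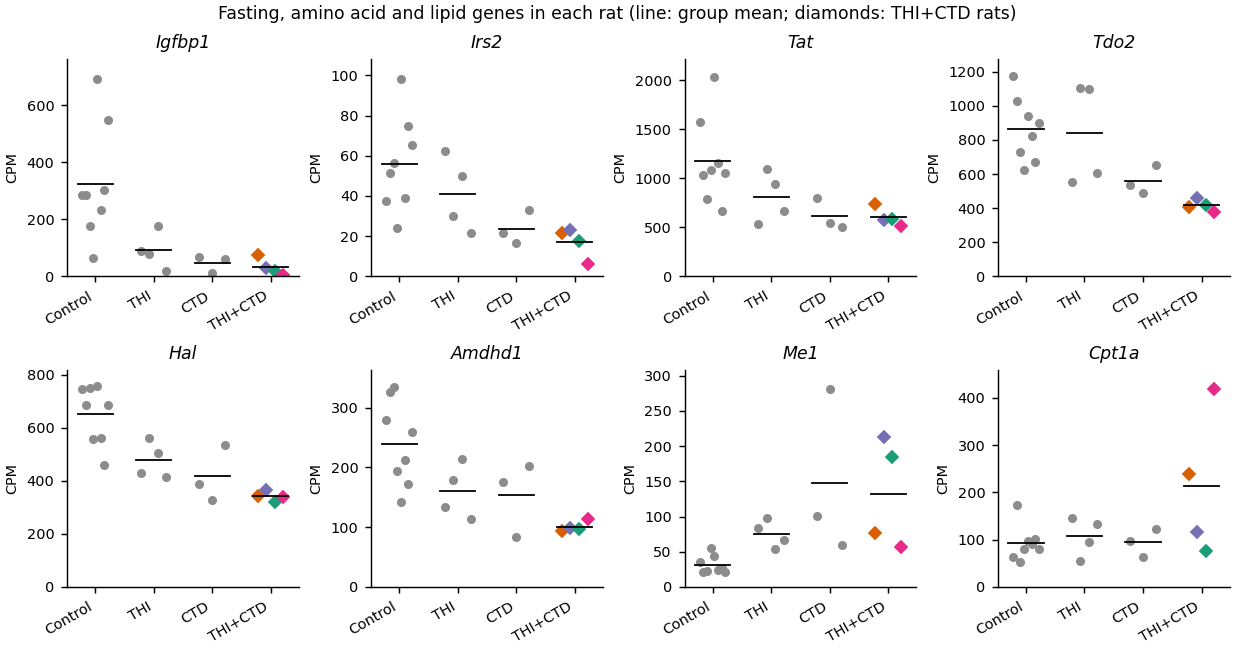
CPM after TMM normalization (y axis of each panel, starting at 0) of 8 genes in each rat of the groups Control, THI, CTD and THI + CTD (x axis), where coloured diamonds are the 4 rats on THI + CTD in the same colours as in the plot of the 22 genes and the black line is the group mean. The doses differ between the groups (108 mg/kg bw of THI, 288 mg/kg bw of CTD, 54 and 134 mg/kg bw in the mixture), and all 4 diamonds lie below all controls for Irs2, Tdo2, Hal and Amdhd1.

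Of 25 genes of the growth hormone, STAT5 and IGF axis 5 fell and none rose (20.0% lower, against 1.71% of all genes tested). The list's summed level was 13350, 12050, 12950 and 10640 CPM in rats 1 to 4 and 16530 to 23250 CPM in the controls, without overlap. The largest part of the difference was A1bg, a plasma protein, at 3448, 2915, 3416 and 2252 CPM against 3830 to 9487 CPM (log2 fold change -1.16 ± 0.31; edgeR, adjusted p = 0.026). Lifr, the receptor of leukaemia inhibitory factor, was the next, with a mean of 752.5 CPM against 2424 CPM in the controls, and did not pass the test (log2 fold change -1.69; edgeR, adjusted p = 0.087). Stat5b, the transcription factor downstream of the growth hormone receptor, fell by 0.28 on the log2 scale to 69.0 to 77.1 CPM (controls 82.5 to 95.8), Igfbp3 by 0.57 and Prlr, the prolactin receptor, by 1.15. Igfbp1, given above, was the fifth. The calls of A1bg and Prlr were lost without rat 2 (edgeR, adjusted p = 0.077 and 0.079) and without rat 3 (edgeR, adjusted p = 0.063 and 0.097), and that of A1bg also without rat 4 (edgeR, adjusted p = 0.097).

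Of 32 complement and coagulation genes 6 fell and none rose, among them F7, coagulation factor VII, by 0.80 on the log2 scale to 90.8, 95.7, 94.0 and 102 CPM (controls 108 to 256) and Serpind1 by 0.32 to 722 to 804.5 CPM (controls 885 to 1051). The list held 3 DEGs without rat 2 and likewise 3 without rat 3, when F7 was no longer called (edgeR, adjusted p = 0.055). Of 22 acute phase genes 2 fell, Itih3 by 0.41 and Apcs by 0.33, and Serpina3c rose by 0.54 to 9639, 7019, 6856 and 7132 CPM (controls 4698 to 6151). The call of Serpina3c was lost without rat 1 (edgeR, adjusted p = 0.1) and that of Apcs without any 1 of the 4 rats (edgeR, adjusted p = 0.059 to 0.139) and without some single controls. Serpina1, the main antiprotease of plasma, fell by 0.43 to 6009, 6913, 6675 and 5802 CPM (controls 7764 to 9469; edgeR, adjusted p = 0.0023). No treated rat overlapped with a control in any of these 6 genes.

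Markers of immune cells were lower in part. Of 20 markers of Kupffer cells and macrophages 6 fell and none rose (median log2 fold change -0.40), and 19 had a value below 0. C1qc, a subunit of complement C1q, was at 61.6, 50.9, 48.5 and 55.4 CPM against 65.6 to 101.5 CPM (-0.57 ± 0.12; edgeR, adjusted p = 0.0034), Csf1r, the receptor of the macrophage growth factor, at 51.9, 47.2, 41.6 and 47.2 CPM against 54.3 to 85.6 CPM and Cd163, a scavenger receptor, at 46.2 to 52.8 CPM against 56.3 to 82.6 CPM. The defining Kupffer cell markers Clec4f and Vsig4 had log2 fold changes of -0.46 and -0.45 and did not pass the test (edgeR, adjusted p = 0.081 and 0.072). The summed level of the 20 markers was 636 to 822 CPM in the treated rats and 790.1 to 1161 CPM in the controls, and rat 1 was within that range. Without rat 2, 3 of the markers were DEGs and without rat 3 there were 2. The call of Csf1r was lost without rat 3 (edgeR, adjusted p = 0.0682) and that of Cd163 without rat 2, 3 or 4 (edgeR, adjusted p = 0.0752, 0.103 and 0.0795) and without some single controls.

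Of 25 markers of T and NK cells 3 fell and none rose (12.0% lower, against 1.71% of all genes tested). Trac, the constant part of the T cell receptor, was at 3.76, 4.10, 2.77 and 3.06 CPM against 4.56 to 6.09 CPM (log2 fold change -0.62 ± 0.13; edgeR, adjusted p = 0.0048), and Cd4 at 11.2 to 15.4 CPM against 14.5 to 22.2 CPM. Zap70, a kinase of T cell receptor signalling, was at 0.193, 0.446, 0.170 and 0.177 CPM against 0.277 to 11.2 CPM, a range much wider than that of Trac, and its call was lost without rat 3 (edgeR, adjusted p = 0.052). The summed level of the list was 23.9, 21.3, 19.5 and 20.7 CPM against 26.3 to 40.6 CPM, without overlap, though only 4 of the 25 markers had an average log2 CPM above 0. Of 13 markers of B and plasma cells Cd22 fell, to 5.04 to 7.85 CPM (controls 9.48 to 15.5). Igkc, the constant part of the kappa light chain of antibodies, was at 3.42, 3.08, 4.66 and 2.28 CPM against 10.2 to 17.03 CPM (log2 fold change -1.95 ± 0.35; edgeR, adjusted p = 0.0011). None of 10 neutrophil markers passed the test, with 1 at an unadjusted p under 0.05 and 0 by the Wald test of DESeq2, and all of them had an average log2 CPM below 0.

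**Figure D5:**
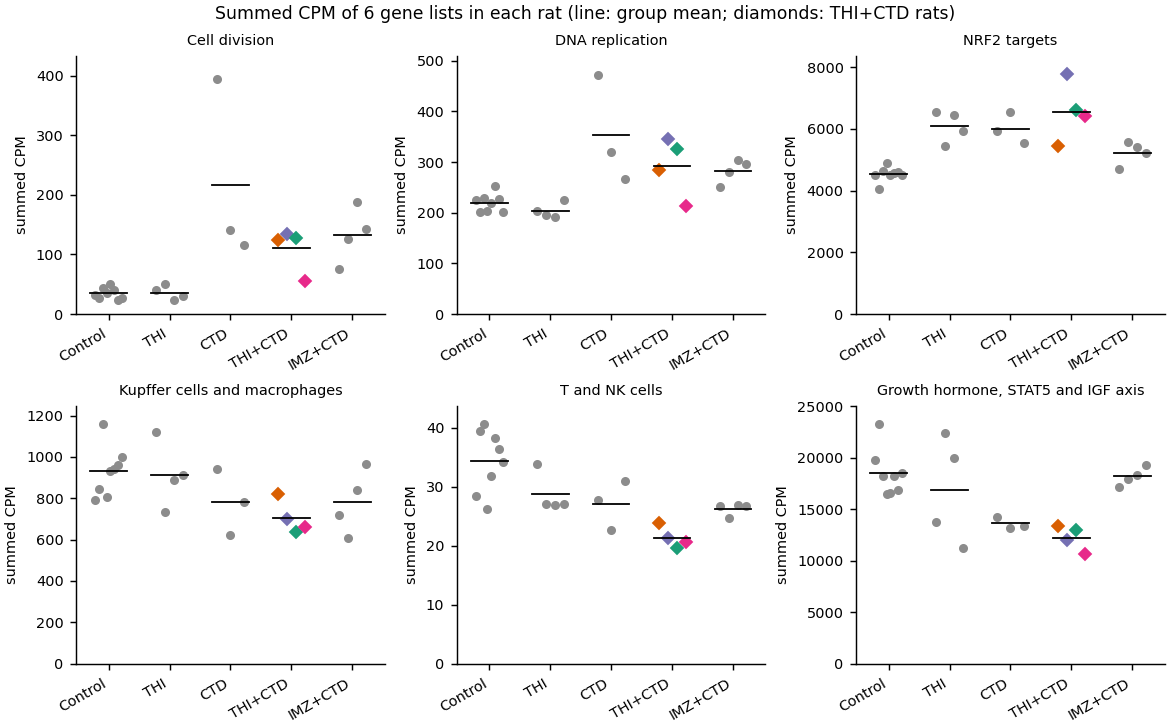
Summed CPM after TMM normalization (y axis of each panel, starting at 0) of the measured genes of 6 gene lists in each rat of the groups Control, THI, CTD, THI + CTD and IMZ + CTD (x axis), where coloured diamonds are rats 1 to 4 on THI + CTD and the black line is the group mean. In the panel of cell division, rats 1 to 3 on THI + CTD lie between 124 and 135 CPM and rat 4 at 55.4 CPM, and in the panel of T and NK cells all 4 lie below the controls.

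Other lists held 1 or 2 DEGs in a direction, where 2.67% of all genes tested rose and 1.71% fell. For the interferon-stimulated genes the share that rose was 2.78%, near that of all genes. Cxcl9, a chemokine induced by interferon gamma, was the only DEG of 36 interferon-stimulated genes (log2 fold change 1.08), and Ctss, a protease of antigen presentation, the only one of 25 genes of that pathway (-0.59), which was lost without rat 2, 3 or 4 (edgeR, adjusted p = 0.09, 0.19 and 0.11) or without some single controls. In the list of clock genes that peak with Dbp, Wee1 was the DEG of 14 (0.94), which was lost without rat 2 (edgeR, adjusted p = 0.054), rat 3 (edgeR, adjusted p = 0.2) or control 5 (edgeR, adjusted p = 0.0504), and in the list that peaks with Arntl, Nfil3 was the DEG of 8 (-0.50). Of 9 red blood cell genes Hbb passed the test, with 13.5, 7.18, 68.5 and 19.4 CPM against 4.12 to 13.3 CPM. The whole list summed to 39.7, 36.2, 223 and 70.9 CPM against 28.7 to 70.8 CPM, so rat 3 stood apart, and without it the log2 fold change of Hbb was 0.57 (edgeR, adjusted p = 0.61). The call of Hbb was also lost without some single controls. None of 14 nicotinic receptor subunits and none of 30 proteasome genes passed the test. Without adjustment, 2 and 0 of them had a p under 0.05, and the Wald test of DESeq2 called 0 in either list.

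In the connective tissue lists the DEGs went both ways, where 2.67% of all genes tested rose and 1.71% fell. Eln, which encodes elastin, was at 6.87, 5.575, 5.685 and 3.80 CPM against 5.31 to 20.3 CPM (log2 fold change -1.26; edgeR, adjusted p = 0.0066), and Myh11, a myosin of smooth muscle, had a log2 fold change of -0.86. Lox, which crosslinks elastin and collagen, rose by 1.48 and Fbln5, a protein of elastic fibres, by 0.82, and these 4 were the DEGs of 20 genes of elastic fibre and smooth muscle. Lox was called no more without rat 1 (edgeR, adjusted p = 0.053), Fbln5 without rat 1, 3 or 4 (edgeR, adjusted p = 0.074, 0.11 and 0.062) and Myh11 without rat 3 or 4 (edgeR, adjusted p = 0.1 and 0.071). Of 18 stellate cell and fibroblast markers 1 rose, the collagen gene Col1a1 (0.91), and 1 fell, Reln (-0.47), and neither was a DEG without rat 1 (edgeR, adjusted p = 0.1 and 0.12). Col1a1 was also lost without rat 2 (edgeR, adjusted p = 0.0719) and Reln without rat 3 or 4 (edgeR, adjusted p = 0.127 and 0.0997) and without some single controls. Of 19 markers of sinusoidal endothelial cells 2 fell, the receptors Kdr (-0.34) and Tek (-0.27), where Kdr was lost without rat 3 or 4 (edgeR, adjusted p = 0.107 and 0.0751). Tek was lost without any 1 of the treated rats (edgeR, adjusted p = 0.0696, 0.159, 0.0507 and 0.149 without rats 1 to 4), without most single controls and with no filter on low counts (edgeR, adjusted p = 0.0517). Prom1 was the DEG of 11 bile duct markers (-1.84) and was lost without rat 1, 3 or 4 (edgeR, adjusted p = 0.075, 0.11 and 0.086).

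For the counts of the next lists, 2.67% of all genes tested rose and 1.71% fell. Of 12 genes of thyroid hormone handling 2 rose and 1 fell. Slc16a10, a transporter of thyroid hormone and aromatic amino acids, was at 48.5, 52.0, 49.55 and 44.9 CPM against 61.5 to 83.4 CPM (log2 fold change -0.62; edgeR, adjusted p = 0.00014), and the rising ones were Slco1a4 and Me1, given above. Of 32 hepatic transporters 4 rose and 2 fell. Beside Abcc3, Abcb1a and Slco1a4 the fourth was ABCC4, an exporter of organic anions, with a rise of 0.76 that was lost without rat 2 or 3 (edgeR, adjusted p = 0.097 and 0.072), and among those that fell was Abcg8, a sterol exporter (-1.65), a call lost without rat 1, 2 or 3 (edgeR, adjusted p = 0.1, 0.14 and 0.13) or without control 1 or 3 (edgeR, adjusted p = 0.0648 and 0.055). Of 30 genes of the stress response of the endoplasmic reticulum 2 rose, Asns (1.49) and Psat1 (1.14), which make asparagine and serine, and both were lost without rat 3 (edgeR, adjusted p = 0.15 and 0.054), Psat1 also without rat 2 (edgeR, adjusted p = 0.0808). Of 37 genes of oxidative phosphorylation 2 fell by small amounts, Ndufa2 (-0.31) and Cox6c (-0.27), both lost without rat 3 (edgeR, adjusted p = 0.066 and 0.063) or rat 4 (edgeR, adjusted p = 0.0588 and 0.0586). The immediate early genes Junb (-1.48) and Btg2, 2 of 22, fell and were lost without rat 1 (edgeR, adjusted p = 0.086 and 0.061) or rat 3 (edgeR, adjusted p = 0.126 and 0.121). Of 21 genes of innate signalling Irak1 rose by 0.28 and Nlrp3 and Sema4a fell (-0.60 and -1.02), where Sema4a, a semaphorin, was at 13.1 to 16.1 CPM against 22.1 to 35.9 CPM. The calls of Irak1 and Nlrp3 were lost without rat 2 (edgeR, adjusted p = 0.066 and 0.058) and rat 3 (edgeR, adjusted p = 0.052 and 0.053). Of 19 pericentral genes Oat fell and the ammonium transporter Rhbg rose by 1.19, the latter lost without rat 1 (edgeR, adjusted p = 0.084) or rat 3 (edgeR, adjusted p = 0.078). The 10 genes taken from the study were chosen on these libraries and are no independent evidence of a direction, and 5 of them rose and 4 fell.

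Most of the 12 genes named for the largest fall, all with an average log2 CPM above 0 and no overlap, were outside these groups. Scube1, a secreted protein with EGF-like domains, was at 0.482, 0.446, 0.639 and 0.759 CPM against 2.64 to 27.8 CPM with a median of 9.20 (log2 fold change -4.43 ± 1.23; edgeR, adjusted p = 0.032). Nov, a matricellular protein also called CCN3, was at 0.651, 0.758, 0.490 and 0.456 CPM against 2.31 to 32.6 CPM (-4.12 ± 1.05; edgeR, adjusted p = 0.018). In both genes the controls spread over about an order of magnitude while the treated rats lay close together, and both calls were lost without any 1 of the treated rats (edgeR, adjusted p = 0.0738 to 0.103 for Scube1 and 0.0504 to 0.0746 for Nov), and that of Scube1 also without control 7 (edgeR, adjusted p = 0.052). Ky, a protein of muscle structure, fell by 2.47 on the log2 scale (SE 0.32) to 2.19, 4.48, 3.13 and 2.20 CPM (controls 11.2 to 32.5) and Megf11, a receptor with EGF-like domains, fell by 1.80 (SE 0.19; edgeR, adjusted p = 4.45e-07) to 4.30 to 6.53 CPM (controls 12.9 to 28.0). Both were called under all 20 alternatives, as were Stac3, Krt23, Glipr1l2 and Igkc. These alternatives all start from the same counts and are no independent measurement. The paper also measured Ky by qRT-PCR and names it as the exception to a good match in direction with the sequencing. The fall of Ky therefore rests on the counts alone. Stac3, an adaptor of muscle calcium channels, was at 15.4, 8.18, 21.7 and 15.2 CPM against 47.6 to 360 CPM and Krt23, a keratin, at 2.04 to 6.85 CPM against 11.3 to 58.8 CPM.

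Cpa1, a carboxypeptidase of digestion, was at 113, 139.5, 13.4 and 57.1 CPM against 188.5 to 464 CPM (log2 fold change -1.82 ± 0.49; edgeR, adjusted p = 0.026). It carried nearly the whole sum of the 10 pancreas markers, which was 120, 145, 22.0 and 61.7 CPM against 194 to 469.5 CPM, while Ctrb1 and Cela2a, defining enzymes of pancreas, were at 0 in all 4 treated rats and at no more than 0.0605 and 0.0289 CPM in the controls. The call was lost without rat 3 (edgeR, adjusted p = 0.11) or rat 4 (edgeR, adjusted p = 0.09). Ccdc38 and Glipr1l2 were lower, with log2 fold changes of -1.89 and -2.43, both without overlap. The call of Ccdc38 was lost without rat 3 (edgeR, adjusted p = 0.052) or rat 4 (edgeR, adjusted p = 0.051).

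The direct comparison of the mixture with 108 mg/kg bw of THI alone, a dose 2 times that in the mixture, gave 21 DEGs (0.106% of the genes tested), 20 of them higher with the mixture. The 3 with the largest change and no overlap were genes of the dividing cell. RRM2 was at 2.13 to 12.1 CPM with THI + CTD and 0.0551 to 1.86 CPM with THI (log2 fold change 3.21 ± 0.62; edgeR, adjusted p = 0.037), Nek2l1, named after a mitotic kinase, at 0.532 to 3.03 CPM and 0 to 0.338 CPM (3.13 ± 0.66; edgeR, adjusted p = 0.045), and Cdca3 at 0.709 to 3.21 CPM and 0.0827 to 0.394 CPM (2.99 ± 0.60; edgeR, adjusted p = 0.037). The summed level of the 37 cell division genes was 22.9 to 49.7 CPM with THI, beside 22.9 to 49.98 CPM in the controls. This comparison was unstable. With 1 rat left out it gave between 0 and 75 DEGs, the 75 without rat 4 of the mixture, which was the rat low in cell division, and the counts without any of the other rats of these groups were 0 to 4.

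In the same way, the mixture and 46 mg/kg bw of imazalil with 135 mg/kg bw of CTD, which hold nearly the same dose of CTD, differed in 35 DEGs (0.176%), 24 higher with THI + CTD and 11 lower. Grin2c was at 7.52 to 12.0 CPM with THI + CTD and 1.51 to 2.83 CPM with IMZ + CTD (log2 fold change 2.29 ± 0.44; edgeR, adjusted p = 0.024). Por was at 213 to 272 CPM and 82.3 to 121 CPM (1.24 ± 0.24; edgeR, adjusted p = 0.027), and Hlf, a clock-controlled factor, at 5.01 to 10.2 CPM and 2.82 to 3.50 CPM (1.32 ± 0.27). For Hlf the controls were at 5.01 to 8.71 CPM, so that THI + CTD stood near the controls. Ky (-1.60), Amdhd1 (-1.28) and Tdo2 (-1.14) were lower with THI + CTD, with 377 to 461 CPM against 715 to 1105 CPM for Tdo2. With 1 rat left out the count was 27 without rat 1 and 31 without rat 4 of the mixture, and 3 to 18 without any other rat of these groups.

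Against 288 mg/kg bw of CTD alone, more than 2 times its dose in the mixture, 531 genes were DEGs (2.67%), 331 of them higher with the mixture. In the genes that led this comparison the mixture overlapped with the controls and the CTD livers did not. Rps16, a ribosomal protein, was at 52.95 to 77.1 CPM with THI + CTD and 54.2 to 94.4 CPM in the controls, but at 6.86 to 20.0 CPM in the 3 CTD livers (log2 fold change of the mixture against CTD 2.54 ± 0.26; edgeR, adjusted p = 1.21e-07). Scamp3, a membrane protein of vesicle traffic, was at 38.3 to 45.3, 35.4 to 44.7 and 11.2 to 12.6 CPM in the same order, and the mitochondrial gene MT-ATP8 at 0.618 to 1.16, 0.440 to 0.802 and 2.73 to 6.03 CPM. The CTD libraries stood apart in these genes, and with only the 2 groups in the fit 99 DEGs were left, with 313 without CTD replicate 1. The paper marks this CTD group for killing in moribund condition, which left 3 rats. In its supplement, the share of uniquely mapped reads was lower in each CTD library than in any THI + CTD library. That share was higher in each THI + CTD library than in any control, while CTD replicate 1 lay within the controls. Whether the killing or the mapped share bears on these genes was not tested. The summed level of cell division genes was 117 to 393.5 CPM in the CTD livers, which overlaps with the 55.4 to 135 CPM of the mixture.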

How the data were processed

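Liver RNA of 31 rats was sequenced with a stranded total RNA kit, and the comparison uses 4 THI + CTD and 8 control libraries. The deposited count table held raw counts per gene made by the authors, who state that they used uniquely mapped reads. The submitters' processing notes name FastQC 0.11.5, STAR 2.5.2b, DESeq2 1.15.1 and the build Rnor_5.0. The annotation release and the strand setting of the counting are not given in the sources used here. A second table deposited by the authors holds normalized signal, the counts divided by a size factor per library, which was checked and not used for tests. The 12 libraries held 32726300 to 101230067 counts, and no pair of libraries of a group agreed within counting noise.

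Of 26312 genes, 19904 had counts that summed over all 31 columns to 2 or more and were kept, 17144 of them with a symbol. The quasi-likelihood test of edgeR 4.0.16 (legacy method, R 4.3.3) was fitted to all 31 libraries with 7 group means and TMM normalization, and p-values were adjusted by Benjamini and Hochberg over all genes at a threshold of 0.05, 2-sided. The fits were tested on simulated data first. CPM values are relative to the TMM-scaled library total and depend on depth and on the abundant genes of a library. CPM are not divided by gene length, so levels were not compared between genes. SE stands for the standard error of the log2 fold change. Replicates are separate rats as the labels give them.

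The members, gene lists and rules were chosen with earlier results of these data known. Genes were named by rule: the 12 largest and the 12 smallest log2 fold changes among DEGs with a symbol, a mean log2 CPM over 0 and no overlap between the treated rats and the controls, the 10 smallest p, up to 8 members per list of 46 lists, and up to 3 genes per direction in each direct contrast. Lists are described by counts and medians, with no test. Each count is to be read beside the 2.67% of all genes tested that rose and the 1.71% that fell. List symbols were matched by symbol or RefSeq synonym, and 38 of 995 were not matched. Alternatives were the Wald test of DESeq2 1.42.0, its size factors in edgeR, filterByExpr, no filter, the newer quasi-likelihood method, a fit of only the groups compared, counts thinned to the smallest library, a block for the replicate number and leaving out each rat. Promoters are from RefSeq (GRCr8), matched by symbol, and are not on the build of the counts. The other treatments of the series enter the fit and were otherwise not analysed here. Results that need items withheld from this text are not reported here.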

Additional observations from a re-analysis of the deposited data

Results flagged for a closer look

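Single livers stood apart from the rest of their group in 6 of the 66 sets of values looked at, where chance alone flags about 1 in 20 groups. In the controls, Abcc3 was at 25.2 CPM and Aldh1a1 at 172 CPM in control 4, Nov at 32.6 CPM and Krt23 at 58.8 CPM in control 2, and Ky at 32.5 CPM in control 3, each the highest of the 8. In the mixture, the summed level of the 37 cell division genes was 55.4 CPM in rat 4 against 124 to 135 CPM in the other 3 rats.

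Genes whose effect differed between treatments, each by the direct contrast in edgeR, were named for 3 comparisons that share the THI + CTD libraries. Against CTD alone, Rps16 (log2 fold change 2.54, adjusted p = 1.21e-07), Scamp3 (1.84, adjusted p = 9.04e-14) and Rab27a (1.64, adjusted p = 0.0017) were higher with the mixture. MT-ATP8 (-2.47, adjusted p = 7.46e-06), MT-ND4L (-1.43, adjusted p = 2.51e-05) and MT-ND2 (-1.34, adjusted p = 0.00017) were lower. In all 6 genes the 4 rats of the mixture overlapped with the controls and the 3 CTD livers did not. Against THI alone, RRM2 (3.21, adjusted p = 0.037), Nek2l1 (3.13, adjusted p = 0.045) and Cdca3 (2.99, adjusted p = 0.037) were higher in edgeR. Against IMZ + CTD, Grin2c (2.29, adjusted p = 0.024), Hlf (1.32, adjusted p = 0.027) and Por (1.24, adjusted p = 0.027) were higher and Ky (-1.60, adjusted p = 0.035), Amdhd1 (-1.28, adjusted p = 0.024) and Tdo2 (-1.14, adjusted p = 0.027) lower in edgeR.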

How the results depend on the processing

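No direction was reversed in any result under any alternative run. Of the 27 named genes, 20 passed the threshold under all 20 alternatives and 7 lost it under at least 1. The 873 DEGs against control became 1386 with the Wald test of DESeq2 (638 lower), which held 863 of the 873, and the share of higher genes ran from 54.0% to 65.1% over the alternatives (60.9% as reported). Leaving out 1 rat gave 450 to 969 DEGs, with 291 to 565 higher and 159 to 404 lower. The lowest count, without rat 3 of the mixture, shared 432 genes with the 873. The median shift by the size factors of DESeq2 was -0.0015.

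With a block for the replicate number there were 348 DEGs (217 higher and 131 lower), 313 of them among the 873. The numbers 5 to 8 occur only among the controls, so those controls add nothing to the contrast in this fit. It then rests on controls 1 to 4 and the 4 treated rats. How much of the fall in DEGs comes from this was not tested. The same-numbered rats of the controls and the mixture did not deviate together (correlations of 0.037, -0.084, -0.012 and 0.014). No treated rat correlated best with the control of its own number. The labels name nothing behind the number, and these correlations cannot decide whether it stands for a shared handling. Under the block, 12 genes of cell division, 3 of DNA replication, 0 of antigen presentation and 0 of clock output were DEGs, and the contrast with THI gave 2.

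The other counts moved as follows. Against CTD there were 936 DEGs by the Wald test, 99 with only the compared groups in the fit and 313 to 585 with 1 rat left out. Against THI there were 154, 7 and 0 to 75, and 3 with counts thinned to the smallest library. Against IMZ + CTD there were 191, 86 and 3 to 31. With 1 rat left out, 24 to 33 genes of cell division, 4 to 17 of DNA replication, 13 to 15 targets of CAR and PXR, 0 to 1 of antigen presentation, 3 to 4 of cholesterol synthesis and 0 to 3 of clock output were DEGs. Cholesterol synthesis had 5 with only the compared groups. Clock output had 3 by the Wald test, 3 with only the compared groups, and 2 each with thinned counts and with filterByExpr. The cause of these shifts was not tested. With the counts thinned to the smallest library, 867 genes were DEGs against control.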

Other observations

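Several genes outside the lists changed as well, and those named here were chosen after their values were seen. Among the higher genes were 5 carboxylesterases, which cleave ester drugs and lipids, and the family was not counted as a whole. Ces1c was at 1237, 1252, 1192 and 1268 CPM in rats 1 to 4 of the mixture against 624 to 938 CPM in the controls (log2 fold change 0.68 ± 0.10; edgeR, adjusted p = 0.00015), and Ces1d rose by 0.99, Ces2i by 1.06, Ces1h by 1.03 and CES2H by 0.76. The 4 treated rats were above all controls for each. Crot, a carnitine transferase of peroxisomes, rose by 1.34 to 152, 144, 160.4 and 121 CPM (controls 38.0 to 75.5), and Csad, of taurine synthesis, by 1.21 to 53.7 to 79.5 CPM (controls 21.5 to 32.1). Hsd11b1, which regenerates active glucocorticoid, was at 126, 67.2, 138 and 140.1 CPM against 17.15 to 70.6 CPM (1.99 ± 0.39; edgeR, adjusted p = 0.0023), with rat 2 within the controls. Uhrf1, which maintains DNA methylation at replication, was at 3.28, 5.597, 4.003 and 1.75 CPM against 0.163 to 1.07 CPM, with rat 4 the lowest, and the linker histone Hist1h1a at 5.565, 3.88, 3.79 and 3.19 CPM against 0.461 to 1.88 CPM.

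Among the lower genes, Hyal1 and Hyal3, which degrade hyaluronan, had log2 fold changes of -0.89 and -0.71, Hyal1 being at 32.8, 33.7, 28.6 and 22.98 CPM against 44.6 to 63.3 CPM. Car12, a carbonic anhydrase, was at 3.61, 6.38, 6.88 and 5.80 CPM against 11.4 to 16.2 CPM (-1.35 ± 0.22; edgeR, adjusted p = 0.00028). Agxt, of glyoxylate metabolism, was at 115 to 133.5 CPM against 158 to 281 CPM, and Etnppl, of phosphoethanolamine breakdown, at 49.3 to 67.5 CPM against 73.2 to 153 CPM. A gene without a symbol, ENSRNOG00000037549, was at 138, 144, 225 and 128 CPM against 671 to 4270 CPM (-3.77 ± 0.82; edgeR, adjusted p = 0.0053), at 126.5 to 3631 CPM with THI, at 212 to 449.9 CPM with CTD and at 1614 to 3645 CPM with IMZ + CTD.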
